A study of Mus musculus with 15 samples.

Results

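Long autosomal blocks without any peak were taken from the 12 interval lists of EL4 cells, a mouse T lymphocyte lymphoma line. The lists come from ChIP-seq with antibodies against 5 histone marks, H3K4me3, H3K9ac, H3K27ac, H3K36me2 and H3K27me3, and from ATAC-seq, with 2 replicates of each assay. All cells were of this untreated line, of C57BL/6N origin, so there is no second condition, and every value describes a single line. According to the methods the ATAC-seq replicates and the replicates whose peaks were merged were technical. There are 15 samples, of which the input and 2 RNA-seq samples were not analysed here.

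The blocks were chosen by the lists themselves: all intervals were pooled, overlapping ones were merged, and each stretch of at least 300 kb between neighbouring intervals was kept. This gave 599 blocks among 93245 autosomal stretches, or 0.642% of them. Because the lists defined the blocks, the absence of intervals inside is not a result. Annotated genes, promoter sequence and miRNAs did not enter the rule, nor did a list when the blocks came from the others. However, intervals touched 78.5% of autosomal protein-coding genes, and a touched gene cannot lie inside. Gene and promoter content is therefore not independent of the choice. The lists hold positions only, with no read count, so the depth behind them is unknown. A block is a region where no interval passed the thresholds of the authors, and whether reads were missing there was not measured. Gene positions are those of RefSeq on GRCm38.p6.

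The assays read different states of chromatin. H3K4me3 marks promoters, H3K9ac and H3K27ac mark active promoters and enhancers, and ATAC-seq finds DNA that is open to a transposase. H3K36me2 covers broad domains in and between genes, and H3K27me3 is laid down by Polycomb complexes over silent genes. Many mouse genes that serve a single tissue, such as the receptors of smell and pheromones, stand in long tandem clusters. Lists of T lineage, B lineage and myeloid genes were also placed. An interval of any assay counts as a touch, H3K27me3 included, so these counts do not identify the cell type. Of 22 T lineage genes, 21 were touched by an interval and 0 lay in a block, and the remaining gene was Cd8a. The 10 B lineage and 10 myeloid genes also had 0 members in a block, and intervals touched 5 and 7 of them. Over all autosomal protein-coding genes intervals touched 78.5% and 8.3% lay in a block. With lists this small, 0 inside is near that share.

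The following 4 promoter windows are chosen examples from inside the blocks and are not typical of them. Each has 300 bases, from 250 before to 50 after the annotated start, as RefSeq gives it on GRCm38.p6. Each runs 5′ to 3′ on the strand of the gene, with every CpG dinucleotide in capitals. Ncam2, a neural cell adhesion gene (chr16:81200447-81200746, plus strand), had the CpG-rich window farthest from any block edge, and Mrpl47, a subunit of the mitochondrial ribosome (chr3:32736706-32737005, minus strand), stands for the broadly used genes found inside. Both were chosen after their values were seen. Olfr183 (chr16:58995154-58995453, plus strand) and Vmn1r5 (chr6:56970085-56970384, plus strand) are the longest odorant receptor and type 1 vomeronasal receptor genes inside.
Ncam2: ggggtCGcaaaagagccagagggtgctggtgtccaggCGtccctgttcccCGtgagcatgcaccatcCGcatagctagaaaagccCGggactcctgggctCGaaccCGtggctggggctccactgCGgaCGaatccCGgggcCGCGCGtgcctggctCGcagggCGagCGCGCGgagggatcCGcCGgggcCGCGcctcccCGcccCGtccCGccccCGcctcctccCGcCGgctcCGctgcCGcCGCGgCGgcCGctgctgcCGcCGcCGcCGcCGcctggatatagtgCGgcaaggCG
Mrpl47: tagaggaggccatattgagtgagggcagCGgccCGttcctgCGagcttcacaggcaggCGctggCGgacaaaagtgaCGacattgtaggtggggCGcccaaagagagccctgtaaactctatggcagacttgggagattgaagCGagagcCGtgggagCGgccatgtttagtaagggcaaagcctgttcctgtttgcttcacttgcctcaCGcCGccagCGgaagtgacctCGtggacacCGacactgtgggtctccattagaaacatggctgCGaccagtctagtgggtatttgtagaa
Olfr183: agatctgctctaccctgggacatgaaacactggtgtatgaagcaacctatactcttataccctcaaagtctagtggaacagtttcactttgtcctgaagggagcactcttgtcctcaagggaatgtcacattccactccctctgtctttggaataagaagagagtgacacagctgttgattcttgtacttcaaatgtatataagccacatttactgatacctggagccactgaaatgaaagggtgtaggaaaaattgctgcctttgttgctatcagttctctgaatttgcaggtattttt
Vmn1r5: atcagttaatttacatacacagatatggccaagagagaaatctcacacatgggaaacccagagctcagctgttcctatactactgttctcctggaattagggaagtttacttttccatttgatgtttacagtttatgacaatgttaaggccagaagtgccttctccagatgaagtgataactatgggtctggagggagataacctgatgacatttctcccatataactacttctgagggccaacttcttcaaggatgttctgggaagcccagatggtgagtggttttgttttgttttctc

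The Ncam2 window held 41 CpG and the Mrpl47 window 16, whereas the windows of Olfr183 and Vmn1r5 held 0. The GC content was 75.7% for Ncam2, 56.3% for Mrpl47, 41.7% for Olfr183 and 41.3% for Vmn1r5. The first 2 are CpG-rich and the receptor windows are not. Of all protein-coding windows inside, 13.5% were CpG-rich. The median GC content inside was 33.3% for odorant and 36.2% for type 1 vomeronasal receptor windows, below the 2 receptor examples.

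The blocks added up to 604 Mb, which was 25.2% of the 2395 Mb between the first and the last interval of the 19 autosomes. Their median length was 640 kb, with quartiles of 405 and 1239 kb, against a median of 3.80 kb over all stretches between intervals. Of the 599 blocks, 364 reached 500 kb, 198 reached 1000 kb, 71 reached 2000 kb and 11 reached 4000 kb. The blocks of at least 1000 kb made up 395 Mb of the total. Just above the limit were 3 blocks of 300.001, 300.401 and 301.147 kb, which held Nat3, no protein-coding gene, and Sox21 with Gm9376. Just below it were stretches of 298.545, 298.39 and 297.801 kb, and the shortest of these held 14 genes, most of them of the skin barrier, such as Ivl, Sprr4 and Lce1a1.

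**Figure D1:**
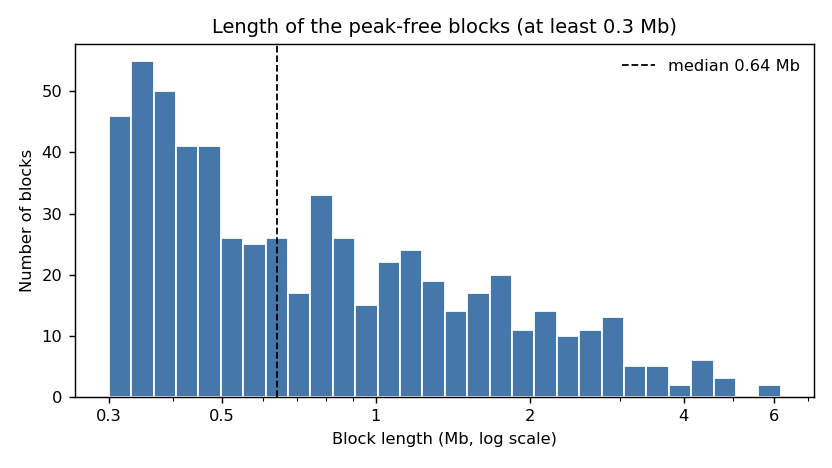
Number of peak-free blocks (vertical axis) by length in Mb (horizontal axis, log scale), over 599 blocks. The dashed line is the median of 640 kb, and the tail reaches 6.05 Mb.

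The blocks were spread unevenly over the autosomes. Chromosome 3 had the most, with 57 blocks over 65.4 Mb and 41.7% of its span, followed in share by chromosome 16 (39.1%), chromosome 14 (38.0%) and chromosome 4 (36.9%). Chromosome 11 had 2 blocks on 2.23% of its span and chromosome 19 had 3 blocks on 5.61%. On chromosome X, which the rule leaves out, the same step gave 97 stretches over 66.9% of the span. The number of libraries is the same for every chromosome, and chromosomes are not replicates, so these shares are given without a test.

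The longest block was chr4:76450400-82504400, 6.05 Mb between an H3K36me2 and an H3K27me3 interval. It held Tyrp1, a pigment enzyme of melanocytes, Lurap1l and Mpdz, a scaffold protein with many PDZ domains. The second, chr16:78657400-84553935 (5.90 Mb), held Chodl, Tmprss15 (the enteropeptidase of the intestine) and Ncam2. In chr1:107477600-112457400 (4.98 Mb) lay Serpinb2, Serpinb10 and Serpinb8, which are protease inhibitors, the cadherins Cdh7 and Cdh19, and Dsel. The blocks chr8:48144800-53083200 (4.94 Mb) and chr5:77810224-82436102 (4.63 Mb) each held a single protein-coding gene, Tenm3 and Adgrl3, both cell surface proteins of neurons.

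The block chr7:7297000-11823333 (4.53 Mb) differed from these in holding 38 protein-coding genes, the first of which were Vmn2r30 to Vmn2r36 and Vmn2r41 to Vmn2r43. The block chr3:71564601-75955312 (4.39 Mb) held Sis (sucrase-isomaltase of the intestine), Slitrk3, Bche (butyrylcholinesterase), Gm6098, Zbbx, Serpini2, Wdr49, Pdcd10 and Serpini1. Tlr4, the receptor for bacterial lipopolysaccharide, and Brinp1 lay in chr4:65608600-69995400 (4.39 Mb). The pancreatic and intestinal Reg genes Reg3b, Reg3d, Reg3a, Reg2, Reg1 and Reg3g shared chr6:77609502-81923384 (4.31 Mb) with Gm20594 and Lrrtm4. The tenth block, chr18:25602400-29848400 (4.25 Mb), held no protein-coding gene as a whole and 27 genes of other classes. The 10 longest blocks thus include stretches with 0 to 9 protein-coding genes and a single block with 38.

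Some neighbouring blocks were parted by very little. In 115 chains, 263 blocks were joined by 148 separators of at most 10 kb, and 74 of these separators came from a single list. The longest chain ran over 8.97 Mb of chr14:89899122-98869860 and had 5 blocks with 1549 bp of intervals between them. A chain of 8.50 Mb on chromosome 6 was split only by a 643 bp peak that both H3K4me3 lists contain. The block numbers therefore count stretches between called intervals, and a single short peak can make 2 blocks of 1.

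Peak-free blocks held fewer whole protein-coding genes per Mb than the span outside them. They held 1716 of 20665 autosomal protein-coding genes in full (8.3%) on 25.2% of the span, and 6325 of 47042 genes of all classes (13.4%). The density was 2.84 protein-coding genes per Mb inside and 10.5 per Mb outside, a ratio of 3.69, and it was lower inside on 19 of 19 autosomes. The ratio was smallest on chromosome 2 (1.73) and largest on chromosome 19 (41.8), where a single gene lay inside. Chromosome 7 held 418 of the genes inside, which was 20.6% of its protein-coding genes, and chromosome 2 held 248 (13.9%). The requirement that a gene lies in full between intervals means that a gene touched by any interval cannot count as inside. Intervals touched 16221 protein-coding genes, so the lower density inside is partly set by the rule. Of the untouched genes, 1716 lay inside and 2728 elsewhere, while the blocks made up 37.3% of the length between intervals. On that footing the untouched genes were not sparser inside. The median gene length was 4.27 kb inside and 18.7 kb for the other genes.

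**Figure D2:**
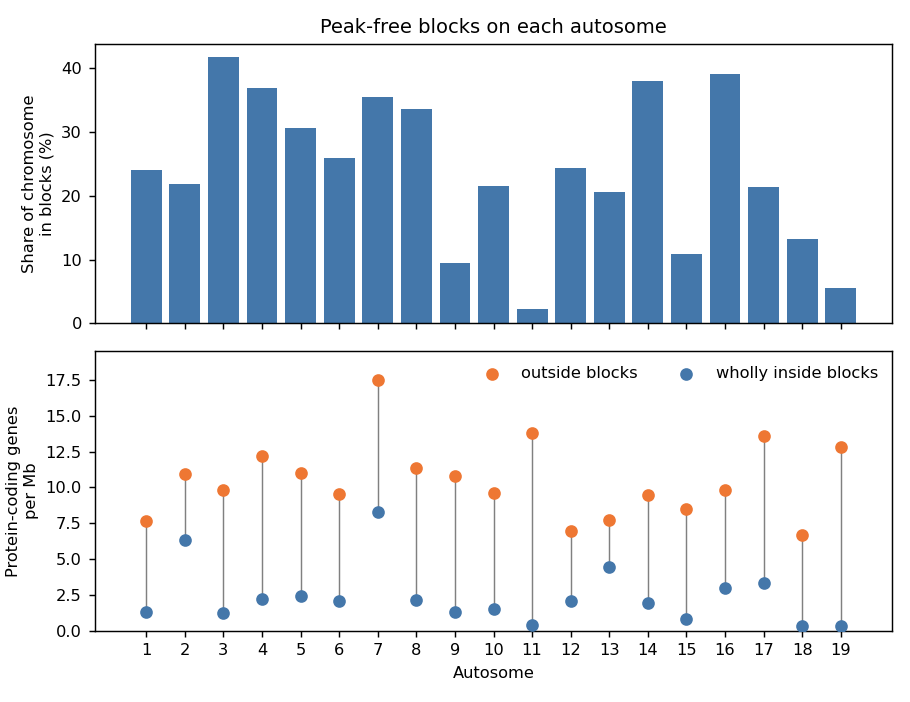
Upper panel, share of the span of each autosome in peak-free blocks (percent). Lower panel, protein-coding genes per Mb wholly inside blocks (blue) and outside (orange) for each of 19 autosomes. The blue point is below the orange one on every autosome, and chromosomes 7 and 2 have the highest density inside (8.30 and 6.34 genes per Mb).

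Of the other gene classes, 2194 of 8884 pseudogenes (24.7%) and 384 of 1286 snoRNA genes (29.9%) lay inside, where the blocks were 25.2% of the span. For lncRNA genes it was 1516 of 12408 (12.2%), for snRNA genes 167 of 931 (17.9%), for miRNA genes 78 of 1136 (6.87%) and for tRNA genes 8 of 391 (2.05%). Pseudogenes and snoRNA genes were thus the most common inside of these classes. Of the 599 blocks, 305 held a whole protein-coding gene, 139 were touched by none and 9 were touched by no gene of any class. A few blocks held most of the genes. There were 44 blocks with at least 10 genes, which held 1070 of the 1716, and 16 blocks with at least 20, which held 660.

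The 3 blocks with the most protein-coding genes held clusters of sensory receptors. The block chr2:85555000-88350800 (2.80 Mb) held 134 protein-coding genes, the first of which were the odorant receptors Olfr996, Olfr998, Olfr1000, Olfr1002, Olfr154, Olfr1006, Olfr1008, Olfr1009, Olfr1012 and Olfr1013. The block chr7:20034000-23814800 (3.78 Mb) held 96, which began with the pheromone receptors Vmn1r91, Vmn1r240 and Vmn1r93 to Vmn1r95. The block chr7:103055600-103839000 (783 kb) held 44. It began with Olfr584 to Olfr586 and ended with Hbb-bt and Hbb-bs, the adult beta-globin genes, which were named after their values were seen. All 3 blocks had an H3K27me3 interval at either end. The odorant receptors are expressed in sensory neurons of the nose, and the type 1 and type 2 vomeronasal receptors in the vomeronasal organ.

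Odorant receptors supplied 406 of the genes inside, which was 36.8% of the 1104 autosomal members, against 8.3% of all protein-coding genes. They lay in 15 blocks, and the longest members inside were Olfr183 and Olfr1280. On chromosome 2 the share was 197 of 287 (68.6%), on chromosome 16 25 of 36 (69.4%), on chromosome 7 138 of 239 (57.7%) and on chromosome 17 28 of 51 (54.9%). In contrast, 0 of 130 members on chromosome 9, 0 of 83 on chromosome 11 and 0 of 68 on chromosome 10 lay inside. The family was therefore not uniform, and its share depended on the cluster. Of all members, 412 (37.3%) lay outside and were touched by an H3K27me3 interval, 18 by H3K36me2, 4 by H3K27ac, 2 by H3K4me3 and 1 by ATAC-seq. Over all protein-coding genes, 4840 (23.4%) were touched by H3K27me3 and 10585 (51.2%) by H3K4me3.

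Type 1 vomeronasal receptors had 138 of 233 members inside (59.2%) in 7 blocks, with Vmn1r5 and Vmn1r14 as the longest. They numbered 96 of 127 on chromosome 7, 30 of 36 on chromosome 13, 10 of 52 on chromosome 6 and 0 of 14 on chromosome 17. Type 2 vomeronasal receptors had 45 of 123 members inside (36.6%), all on chromosome 7, where 52 members are annotated. Vmn2r60 and Vmn2r59 were the longest. Of the bitter taste receptors, 18 of 35 (51.4%) shared 1 block on chromosome 6. None of the 15 trace amine-associated receptors lay inside, and H3K27me3 intervals touched 14 of them. Together the chemosensory families had 607 of 1537 members in blocks (39.5%), which was 35.4% of the protein-coding genes inside.

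**Figure D3:**
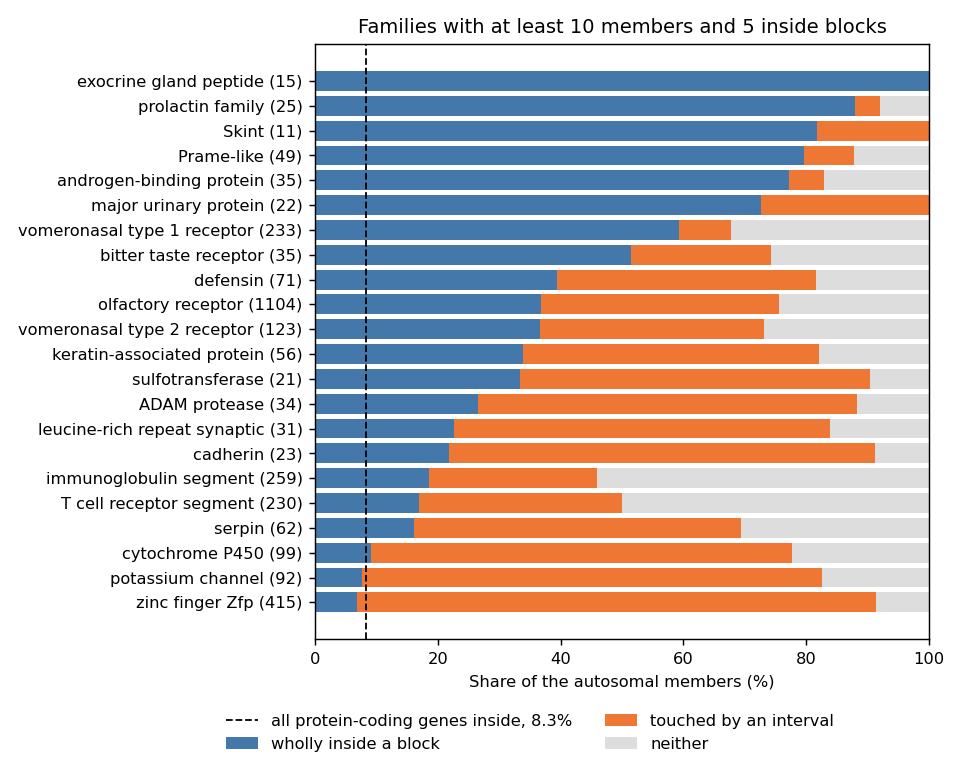
Share of the autosomal members of each family (percent; number of members in parentheses) that lay wholly inside a block (blue), were touched by an interval (orange) or neither (grey), for families with at least 10 members and 5 inside. The dashed line marks 8.3%, the share over all protein-coding genes.

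Some families of secreted proteins and reproductive genes followed. All 15 exocrine gland peptides, secreted pheromones, lay in a single block on chromosome 17, and 27 of 35 androgen-binding proteins (77.1%), secretoglobins of saliva that include Scgb2b4-ps and Scgb2b24, lay in a single block on chromosome 7. Of the prolactin family, hormones of pituitary and placenta, 22 of 25 members (88%) shared a block of 2.72 Mb on chromosome 13, with Prl3a1 and Prl7a2 as the longest. The placental cathepsins had 8 of 8 members inside and the Zscan4 genes of the early embryo 4 of 4. The Prame-like genes of germ cells had 39 of 49 (79.6%) in 6 blocks, with Pramel38 and Pramel35 as the longest. The major urinary proteins had 16 of 22 (72.7%). Other families of placenta and germ cells had lower shares inside. These were the pregnancy-specific glycoproteins (0 of 13), Ceacam genes (0 of 15), Speer genes (3 of 10) and ADAM proteases (9 of 34).

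Defensins, which are antimicrobial peptides, had 28 of 71 members inside (39.4%), Defa-ps8 and Defa29 being the longest, and keratin-associated proteins of hair had 19 of 56 (33.9%). Skint genes had 9 of 11 inside. The zinc finger Zfp genes came to 28 of 415 (6.75%), near the share of all genes, and Zfp993 and Zfp936 were the longest. Predicted genes whose symbols begin with Gm had 284 of 967 inside (29.4%), Gm4724 and Gm40862 being the longest, and genes named from RIKEN clones had 27 of 391 (6.91%), with 9030624G23Rik and 1700057G04Rik. Amylases had 6 of 7, sulfotransferases 7 of 21 (33.3%) and cytochrome P450 enzymes 9 of 99 (9.09%). Not every member outside a block was touched, since an interval touched 30 of the 71 defensins and 2 of the 35 androgen-binding proteins.

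Other clusters of tissue-specific genes had 0 members inside, against 8.3% of all protein-coding genes. These were the keratins (0 of 53), of which H3K27me3 intervals touched 47, the UDP-glucuronosyltransferases (0 of 22, 21 touched by H3K27me3), the Hox genes (0 of 39), the type I interferons (0 of 20) and the killer lectin-like receptors (0 of 29). The late cornified envelope and small proline-rich genes also had 0 of 35 inside, although an interval touched only 1 of them. This count rested on single lists, since 22 lay in blocks without H3K27me3 replicate 1, 16 without H3K27me3 replicate 2, 21 with a minimum of 200 kb and 35 with intervals touched by both replicates only. In 3 sets of genes with basic cell functions the counts were 0 of 76 cytosolic ribosomal proteins, 0 of 38 proteasome subunits and 0 of 13 autosomal housekeeping genes. Intervals touched 71, 38 and 13 of them, which the rule keeps out of blocks. For the smaller of the families and sets with 0 inside, that count is near the 8.3% of all protein-coding genes. Leaving aside families and predicted genes, 497 of the other 15994 protein-coding genes (3.11%) lay in blocks.

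Antigen receptor loci were split. Of 259 immunoglobulin segments without pseudogenes, 48 (18.5%) lay in 3 blocks, 34 of them in the kappa locus on chromosome 6 and 14 in the heavy chain locus on chromosome 12. Of 230 T cell receptor segments, 39 (17.0%) lay in 2 blocks. Over autosomal genes of all classes the share inside was 13.4%, so both shares were not far above it. Another 140 immunoglobulin and 115 T cell receptor segments were neither inside nor touched by an interval. The block chr6:41141665-41542532 (401 kb) held 19 of 39 beta segments, from Trbv16 to Trbd2, with the constant region Trbc1. The block chr14:53832055-54168901 (337 kb) held 20 segments, namely all 10 of the delta locus, Trdc included, and 10 of 166 of the alpha locus, within which the delta locus lies. T cell receptor segments that remained outside were touched by H3K4me3 in 35 cases, by H3K9ac in 34 and by H3K27ac in 39. For immunoglobulin segments these counts were 7, 8 and 19.

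The longest gene inside was Dpp10 (1514 kb), a subunit of potassium channels, in a block of 2.93 Mb. It was followed by Tenm3 (1297 kb), Ccser1 (1203 kb), Auts2 (1106 kb), Gpc6 (1055 kb), Cadm2 (966 kb), the glutamate receptor Grm7 (922 kb), the synaptic adhesion gene Nlgn1 (911 kb), Cntnap5a (903 kb) and Dpyd (871 kb), an enzyme of pyrimidine breakdown. Gpc6 ended 21.8 kb from the nearest edge, whereas Cntnap5a lay 1233 kb from it. Genes of at least 100 kb had 160 of 2313 members inside (6.92%) and those of at least 500 kb had 30 of 216 (13.9%), against 8.3% of all protein-coding genes. In addition, 32 blocks lay within a single protein-coding gene, the longest in Lsamp (1756 kb), Robo2 (885 kb) and Lrrc4c (874 kb). These 3 genes were named after their values were seen.

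Of 30 neuronal genes, 4 lay inside in full. They were Syt1 (a calcium sensor of synaptic vesicles), Gria2 (a glutamate receptor subunit), Gabrg1 (a GABA-A receptor subunit) and Lrrtm4 (a synaptic adhesion protein). This was 13.3% of the list, against 8.3% of all protein-coding genes. Another 14 were partly inside, and an interval touched 25 of the 30. Of 20 developmental transcription factors that Polycomb regulates in many cell types, 3 lay inside (15%) and an interval touched 11, where intervals touched 78.5% of all protein-coding genes. Those inside include Sox2 of stem cells and the neural lineage, 568 kb from the edge of a 1.24 Mb block, and Tbx5 of heart and forelimb, 218 kb from the edge of a 1.33 Mb block. By the rule, no interval of any mark covered Sox2 or Tbx5 in either replicate.

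Promoters inside the blocks were poorer in CpG than the other promoters. Of 20085 autosomal promoter windows of protein-coding genes, 1718 (8.55%) lay inside, and they belonged to 1549 genes. Their median GC content was 43.0%, against 57.7% for the other windows, and their median CpG observed to expected ratio was 0.20, against 0.624. This ratio is the number of CpG divided by that expected from the C and G content. CpG-rich windows, here those with at least 55% GC and a ratio of at least 0.6, made up 13.5% inside and 44.9% elsewhere. Intervals touched 6864 of 8485 CpG-rich windows (80.9%) and 5925 of the 11600 that were not CpG-rich (51.1%). A touched window cannot lie inside, so the lower CpG content is partly set by the rule. Untouched windows outside the blocks were not compared separately. The letters TATAAA occurred on either strand in 31.7% of the windows inside, in 10.9% of the others and in 12.7% of all. For lncRNA genes the median ratio was 0.207 inside and 0.252 elsewhere.

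**Figure D4:**
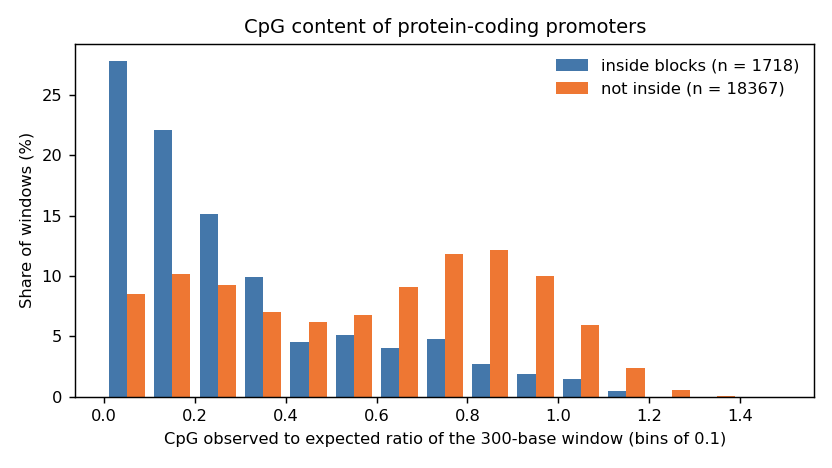
Share of protein-coding promoter windows (percent, vertical axis) by CpG observed to expected ratio (horizontal axis, bins of 0.1), for 1718 windows inside blocks (blue) and 18367 others (orange). Inside, 27.8% of the windows fall in the lowest bin, against 8.52% of the others.

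Windows of receptor genes held few CpG. The 343 odorant receptor windows inside had a median GC content of 33.3% and 0 were CpG-rich, which was also so for the 130 and 41 windows of type 1 and type 2 vomeronasal receptors. Their annotated start is often that of the coding sequence, since the first 3 bases from the start were ATG in 71.7%, 93.1% and 92.7% of these windows. Over genes of all classes the median ratio was 0.203 inside and 0.426 elsewhere, and without the olfactory and vomeronasal receptors it was 0.223 and 0.446. The lower CpG content inside was therefore also found without these receptors. TATAAA occurred in 51.9% of the odorant, 49.2% of the type 1 and 7.32% of the type 2 vomeronasal receptor windows inside. Over genes of all classes its share was 26.4% inside and 12.2% elsewhere, and without these receptors 22.4% and 11.6%. The shares of TATAAA were not adjusted for GC content, and whether it acts as a promoter element was not tested.

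The blocks also held more repeated promoter sequence. The authors kept unique alignments of reads of 38 and 37 bp, so words of 38 bases that occur at more than a single promoter position were counted. Such words were present in 36.4% of the protein-coding windows inside and in 6.37% of the others, and they made up on average 21.3% and 2.38% of the words of a window. The share of windows with shared words was 67.7% for type 1 and 87.8% for type 2 vomeronasal receptors, 93.8% for defensins and 100% for the 10 windows of major urinary proteins. It was 21.0% for odorant receptors and 22.7% for the prolactin family. The part of unplaced reads in the absence of peaks was not tested. Of the windows printed above, all 4 had 0% shared words.

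A smaller set of promoters inside was CpG-rich. It comprised 232 windows of 211 genes in 155 blocks, at a median of 201 kb from the nearest interval, and 165 windows were at least 100 kb away. Shared words were found in 20 of the 232. Of all 8485 CpG-rich protein-coding windows, 2.73% lay in blocks, 80.9% were touched by an interval and 72.8% by H3K4me3, whereas 12.8% of the 11600 other windows lay in blocks. The Ncam2 window was farthest, 2.54 Mb from the nearest interval, followed by Cdh7 (2.47 Mb). Next came the predicted genes Gm3973 (1.69 Mb), Gm9257 (1.66 Mb) and Gm5784 (1.59 Mb) of a block on chromosome 12, all with shared words, and then Adgrl3 (1.42 Mb), Dpp10 (1.35 Mb), Gm40847 (1.05 Mb) and Brinp1 (1.04 Mb). Genes with broad cellular roles were among them too. Mrpl47 and Ndufb5, a subunit of respiratory complex I, start head to head 26.9 and 27 kb from the nearest interval in a 1.09 Mb block of chromosome 3. Pdcd10 lay 398 kb and Mgmt, a DNA repair enzyme, 480 kb from one. Apart from those in the longest blocks and genes, the genes of this paragraph were named after their values were seen.

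The miRNAs inside were partly clustered. Of 919 autosomal miRNA genes with a RefSeq hairpin, 63 (6.86%) lay in 42 blocks, and 33 of these blocks held a single one. The share inside was 8.3% over protein-coding genes and 13.4% over genes of all classes. A block of 3.04 Mb on chromosome 7 held 13 genes of the miR-344 group. The mature forms below, which were chosen after the data were seen, show its shared seeds (bases 2 to 8, in capitals) and the other miRNAs inside that are known from development. miR-137 is abundant in neurons, miR-205 in epithelia, and miR-99a, let-7c and miR-125b-2 form a cluster on chromosome 16.
mmu-miR-344-5p: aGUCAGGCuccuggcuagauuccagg
mmu-miR-344b-5p: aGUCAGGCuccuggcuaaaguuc
mmu-miR-344c-5p: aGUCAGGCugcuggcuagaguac
mmu-miR-344-3p: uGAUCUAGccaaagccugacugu
mmu-miR-344d-3p: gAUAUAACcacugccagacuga
mmu-miR-344e-5p: cAGGCUUCuggcuauauucc
mmu-miR-137-3p: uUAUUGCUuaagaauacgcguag
mmu-miR-205-5p: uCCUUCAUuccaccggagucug
mmu-miR-99a-5p: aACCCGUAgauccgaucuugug
mmu-let-7c-5p: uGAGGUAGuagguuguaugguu
mmu-miR-125b-5p: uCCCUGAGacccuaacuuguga

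The seed GUCAGGC of the 5p forms of miR-344 was carried by products of 7 autosomal genes, and all 7 lay in this block. The seed GAUCUAG of miR-344-3p was likewise inside in 3 of 3, AGGCUUC of miR-344e-5p in 3 of 3, and AUAUAAC of miR-344d-3p in 4 of 5. In contrast, 1 of 11 genes that carry the let-7c seed GAGGUAG lay inside, 1 of 5 with the miR-125b seed CCCUGAG and 1 of 3 with the miR-99a seed ACCCGUA. Over all miRNA genes with a hairpin the share inside was 6.86%, and 1 of 11 is near it. The seeds of miR-137-3p and miR-205-5p were each carried by 1 autosomal gene, which lay inside. Seeds of the miR-344 group were thus mostly inside, at a single locus, whereas those of let-7c, miR-125b and miR-99a were also encoded elsewhere. Several genes encode the same mature form, so these counts are of genes.

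The intervals at the edges of the blocks were compared with all merged intervals. Of 1198 edges, 574 (47.9%) were at an interval with H3K27me3, which was 46.4% among all 93264 merged intervals. H3K36me2 was present in 185 edges (15.4%), against 41.7% of all merged intervals, and ATAC-seq in 312 (26.0%), against 15.9%. H3K4me3 was present in 278 edges (23.2%, against 15.6%). An interval from a single list formed 739 edges (61.7%, against 39.6%). Within 100 kb of the blocks, H3K36me2 covered 6.10% and H3K27me3 8.20% of the base pairs, against 21.6% and 20.6% of the span outside the blocks. ATAC-seq covered 0.505%, against 0.599%, and H3K4me3 1.10%, against 1.53%. Both ends held H3K27me3 without H3K36me2 in 194 blocks and H3K36me2 without H3K27me3 in 28. An interval between neighbouring blocks counts as an edge of each, whereas every merged interval enters the comparison a single time. The edges helped to define the blocks, and these shares are a description.

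To use libraries that had no part in the choice, blocks were taken from the 6 lists of 1 replicate and measured in those of the other. Replicate 1 gave 649 blocks over 656 Mb, in which the replicate 2 lists covered 0.319% of the base pairs, against 25.9% of the span. Replicate 2 gave 629 blocks over 673 Mb, in which the replicate 1 lists covered 0.360%, against 24.4%. The blocks shared 614 Mb, which was 93.6% of the first set and 91.3% of the second. Of the first set 188 blocks (29.0%) were untouched by the other replicate and of the second 127 (20.2%), so most blocks were entered or split by small intervals. The replicates are of the same cell line, and this compares libraries only.

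**Figure D5:**
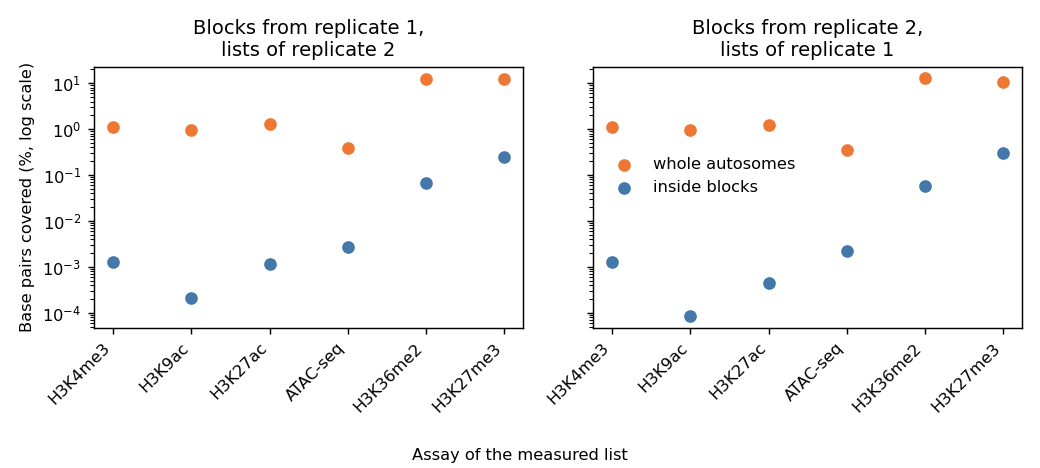
Base pairs covered by each list (percent, log scale) inside blocks that were defined from the other replicate (blue) and over the whole autosomes (orange), for 6 assays. H3K27me3 has the highest coverage inside, 0.246% and 0.299%, and H3K9ac the lowest.

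Leaving out a single list and measuring it in the blocks of the other 11 gave the same order. H3K27me3 covered 0.299% (replicate 1) and 0.246% (replicate 2) inside, against 10.7% and 12.3% of the span. H3K36me2 covered 0.0513% and 0.0629%, against 12.7% and 12.6%. H3K4me3 covered 0.00100% and 0.000931%, against 1.11% and 1.09%, and ATAC-seq 0.00189% and 0.00230%, against 0.347% and 0.397%. All 12 lists were thus sparse in blocks that they had not defined. In each case the other replicate of the same assay helped to define the blocks, so these values compare replicates only. Without both H3K27me3 lists there were 1257 blocks over 1250 Mb with 21.2% of the protein-coding genes, without both H3K36me2 lists there were 740 over 695 Mb with 9.06%, and with the narrow marks and ATAC-seq only there were 1505 over 1422 Mb with 23.5%.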

How the data were processed

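According to the labels and methods, the authors aligned reads with STAR 2.5, kept unique alignments, handled duplicates with Picard, and ran MACS2 (narrow marks, ATAC-seq) or Epic (broad marks) on each replicate, with input as the ChIP control. The labels give the build as GRCm38. The deposited lists hold 3 columns (chromosome, start, end), so the values are positions in bp without score, signal or count, and no normalization applies. Broad intervals lie on 200 bp bins. Although the methods state that sex chromosome reads were discarded, chromosome X intervals are present.

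Intervals of 12 lists were pooled and merged, and autosomal stretches of at least 300 kb were kept. Chromosome spans run from the first to the last interval. RefSeq genes of GRCm38.p6 (47042 autosomal, without strand) were placed by full containment. Families are 61 symbol patterns, and 6 gene lists were used. The members and lists were chosen with earlier results of these data known. Named genes are those of the 10 longest blocks (at most 10 a block), the 3 with most genes, 10 families with most members inside (2 longest each), the 10 longest genes, 3 stretches on either side of the limit and list members inside, of which 1 is not reported here. Promoters and miRNAs are RefSeq sequences. TATAAA was sought on both strands, and 38-base words in promoters only. No test was made, since a single cell line gives no groups. Blocks and genes were checked against bedtools 2.31.1 (0 of 599 blocks and 0 of 6325 genes differed) and on simulated intervals. Tools were Python 3.11.15, numpy 2.4.6, pandas 2.3.3 and matplotlib 3.10.9. Base composition and assembly gaps of whole blocks were not analysed here.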

Additional observations from a re-analysis of the deposited data

How the results depend on the processing

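No paired analysis was possible because the results come from no test. The number of blocks was 599 and stayed within 1.5 times under 200 kb, each replicate alone, both-replicate intervals, without H3K36me2 and with intervals of at least 500 bp, and it was 364 with a 500 kb minimum, 1257 without H3K27me3 and 1505 with narrow marks and ATAC-seq only. Leaving out a single list gave 594 to 644 blocks, 604 to 660 Mb, 8.3 to 9.10% of protein-coding genes inside, 2.82 to 2.93 genes per Mb and 908 to 987 family members.

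The other values were compared with the spread between the replicate 1 and replicate 2 lists. The total length of 604 Mb became 671 Mb (200 kb), 514 Mb (500 kb), 656 Mb (replicate 1), 673 Mb (replicate 2), 794 Mb (intervals touched by both replicates), 1250 Mb (without H3K27me3), 695 Mb (without H3K36me2), 1422 Mb (narrow marks and ATAC-seq) and 629 Mb (intervals of at least 500 bp). In the same order the share of genes was 9.26, 6.46, 9.30, 9.29, 11.3, 21.2, 9.06, 23.5 and 8.99%, and it was 9.24% by gene midpoint and 9.79% by any base pair. The density of 2.84 genes per Mb became 2.60 (500 kb), 2.93 (replicate 1), 2.93 (intervals touched by both replicates), 3.50 (without H3K27me3), 2.69 (without H3K36me2), 3.42 (narrow marks and ATAC-seq) and 2.95 (intervals of at least 500 bp). All these densities were below the 10.5 per Mb outside the blocks of the main rule. The median promoter CpG ratio of 0.203 became 0.20 (protein-coding only) and 0.223 (without receptors). With a 500 kb minimum, bitter taste receptors fell from 18 to 0 members, defensins from 28 to 0, cystatins from 1 to 0, placental cathepsins from 8 to 4, cytochrome P450 enzymes from 9 to 2, serpins from 10 to 5, ADAM proteases from 9 to 5, protocadherins from 2 to 1 and keratin-associated proteins from 19 to 12. Without H3K27me3 replicate 1, serpins came to 18 and glutamate receptors to 5 (from 3), and without replicate 2 Ceacam genes to 2 (from 0).

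Without read counts, too few reads and no mark cannot be told apart.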
